A study of Homo sapiens with 12 samples.

Results

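Cystatins are small proteins that block cysteine cathepsins, the papain-like proteases that digest proteins in lysosomes and can also be secreted. Of this pair of protein families 10 genes are described here, 6 inhibitors (CST1, CST3, CST4, CST6, CSTA and CSTB) and 4 proteases (CTSB, CTSD, CTSL and CTSV), out of 18132 genes measured on the array. They were chosen by their log2 differences between HOTAIR and vector cells in the same arrays, so these changes are a description with standard errors. Whether a member passed the threshold used for all genes is stated only as a count beside those genes, is no independent test, and carries no p-value. All 10 were measured, through 22 probe sets, the groups of array probes that report a transcript.

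The 12 arrays, 3 in each of 4 groups, came from 2 established human urothelial cancer cell lines, VM-CUB1 and 5637, both epithelial. VM-CUB1_HOTAIR 20 and 5637_HOTAIR 4 were single clones stably transfected with a plasmid for HOTAIR, a long noncoding RNA from the HOXC cluster that is known to bind chromatin-modifying complexes. VM-CUB1_LV and 5637_LV were their controls, carrying the empty vector, and all cells had been selected with puromycin and grown in DMEM with fetal calf serum. The 3 arrays of a group were RNA preparations of the same cells, so the spread covers preparations and not clones, and an effect of HOTAIR cannot be told apart from a property of the clone. HOTAIR itself was not analysed here. The deposited log2 values had a median of 0 for each probe set across the 6 arrays of its line, which leaves the difference between HOTAIR and vector cells within a line but no level, so levels cannot be compared between genes or lines, no gene can be called detected, and markers of the tissue could not be read as levels. Arrays of a group correlated at 0.918 to 0.948 over genes in VM-CUB1 and at 0.775 to 0.848 in 5637.

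Cystatins of type 1, also called stefins (CSTA and CSTB), lack a signal peptide and act mostly in the cytoplasm, whereas those of type 2 (CST1, CST3, CST4 and CST6) are secreted. They fit into the active site of cathepsins B, L, V and their relatives as tight, reversible inhibitors, and cystatins C and E/M (CST3 and CST6) also block legumain, another lysosomal cysteine protease, at a second site. Cathepsin D (CTSD) is an aspartic protease that cystatins do not inhibit. In stratified epithelia, cystatin A and cystatin E/M take part in the formation of the cornified envelope, and cathepsins L and V are among the proteases that cystatin E/M controls there.

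In VM-CUB1, CST6, CSTA, CST3, CST4 and CTSV were lower and CTSL and CTSB were higher in the HOTAIR clone at an adjusted p under 0.01 (limma), that is 2 members higher and 5 lower of 10. Of all 18132 genes 41.6% passed that threshold, 21.1% higher and 20.5% lower. In 5637, CST6, CSTA, CST3, CTSB and CTSD were higher and CTSL and CTSV lower, 5 higher and 2 lower, where 29.9% of all genes passed, 14.7% higher and 15.2% lower. The choice of members used these contrasts, so nothing is read from the counts. A change of RNA in a culture does not tell fewer cells expressing a gene apart from less RNA per cell.

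**Figure D1:**
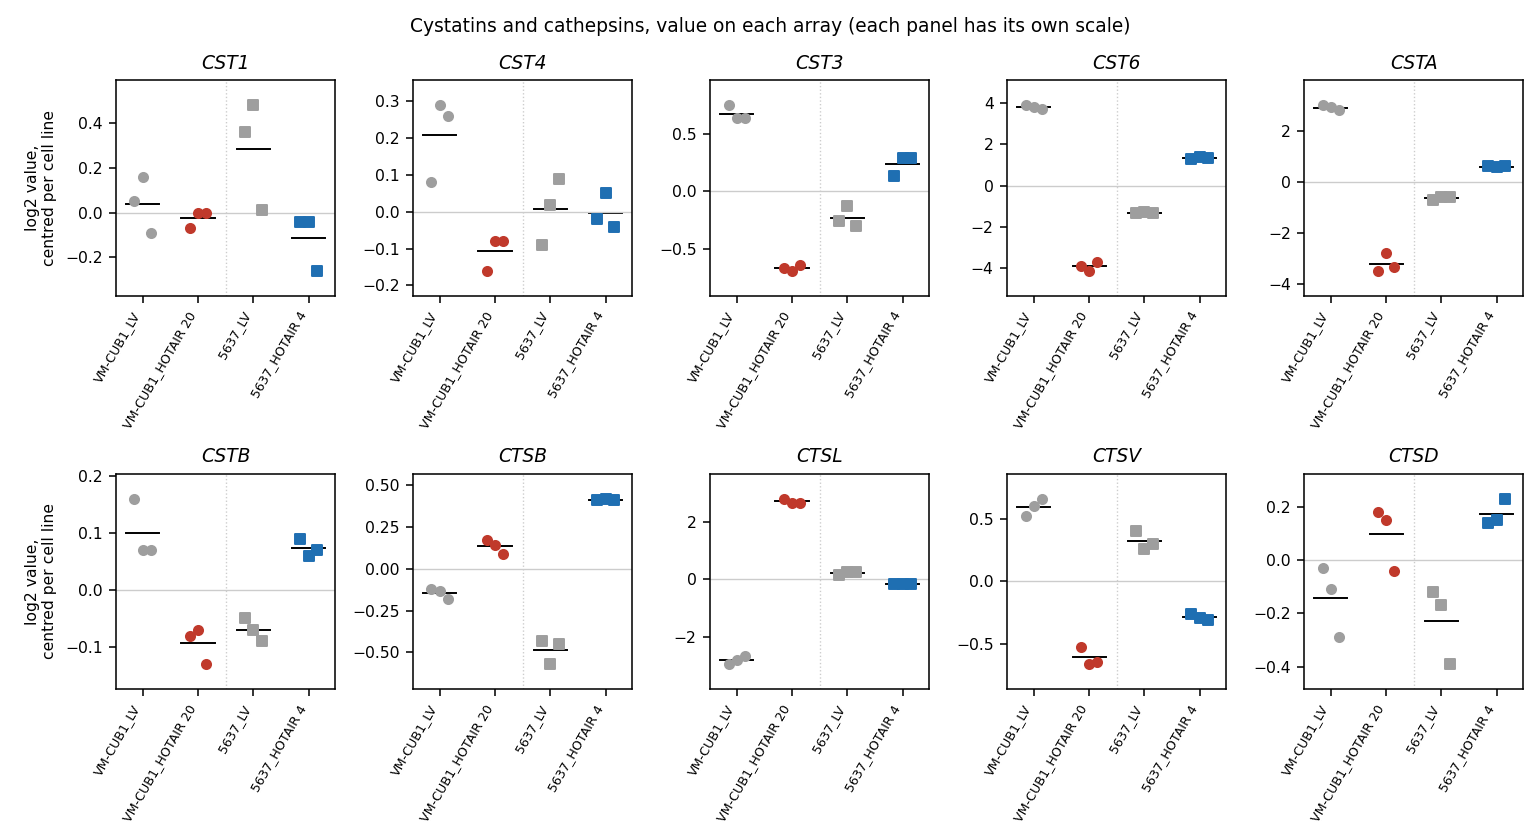
Centred log2 value of each member on each of the 12 arrays (vertical axis, own scale in each panel), with grey points for vector arrays, coloured points for HOTAIR arrays and a line at the group mean. In VM-CUB1, CST6 lay between 3.70 and 3.90 on vector arrays and between -4.13 and -3.70 on HOTAIR arrays, and CTSL ran the other way.

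CST6 encodes cystatin E/M, the secreted inhibitor of cathepsins L and V and of legumain. On the VM-CUB1_HOTAIR 20 arrays its centred log2 values were -3.88, -4.13 and -3.70, and on the VM-CUB1_LV arrays 3.90, 3.81 and 3.70. On the 5637_HOTAIR 4 arrays they were 1.28, 1.40 and 1.34, and on the 5637_LV arrays -1.32, -1.28 and -1.32. The groups were far apart in both lines and in opposite order. The log2 fold change was -7.71 ± 0.109 (SE, n = 3 against 3) in VM-CUB1, 209-fold lower, and 2.65 ± 0.051 in 5637, 6.26-fold higher. No background level accompanied the values, so how far the low group lay above background is unknown and the folds are those of the normalized signal.

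CSTA, cystatin A, is a cytoplasmic inhibitor and a cornified envelope precursor in squamous epithelium. Its values were -3.47, -2.79 and -3.34 in VM-CUB1_HOTAIR 20 and 3.00, 2.92 and 2.79 in VM-CUB1_LV. In 5637 they were 0.62, 0.57 and 0.61 with HOTAIR and -0.72, -0.58 and -0.57 with vector. As for CST6, the HOTAIR arrays were the low ones in VM-CUB1 and the high ones in 5637, with no overlap. CSTA was 68.8-fold lower in the first line (log2 fold change -6.10 ± 0.160) and 2.34-fold higher in the second (1.22 ± 0.057).

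CST3, cystatin C, is the inhibitor made by nearly all cell types and the most abundant one in body fluids. In VM-CUB1 the 3 HOTAIR arrays read -0.67, -0.69 and -0.64 and the vector arrays 0.75, 0.64 and 0.64. In 5637 the HOTAIR arrays read 0.13, 0.29 and 0.29 and the vector arrays -0.26, -0.13 and -0.30. The order was again opposite in the lines, with smaller steps, a 2.54-fold lower value in VM-CUB1 (-1.35 ± 0.057) and a 1.38-fold higher one in 5637 (0.46 ± 0.070). CSTB, cystatin B, is the widely expressed stefin whose loss causes a progressive myoclonus epilepsy. Its values were -0.08, -0.07 and -0.13 in VM-CUB1_HOTAIR 20 against 0.16, 0.07 and 0.07 in VM-CUB1_LV. In 5637 they were 0.09, 0.06 and 0.07 with HOTAIR against -0.05, -0.07 and -0.09. The arrays did not overlap and took opposite orders in the lines, but the log2 fold changes of -0.20 ± 0.055 and 0.14 ± 0.046 did not pass the threshold.

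CST4 and CST1 encode cystatins S and SN, best known as secreted proteins of saliva and tears. The 2 genes neighbour CST3 in the cystatin cluster of chromosome 20, where the order of protein-coding genes was CST3, CST4, CST1, CST2 and CST5 in the annotation (GRCh38.p14). CST4 values were -0.16, -0.08 and -0.08 in VM-CUB1_HOTAIR 20 and 0.08, 0.29 and 0.26 in VM-CUB1_LV, a log2 fold change of -0.31 ± 0.071. In 5637 the HOTAIR arrays at -0.02, 0.05 and -0.04 lay within the vector arrays at -0.09, 0.02 and 0.09. CST1 overlapped between the groups in VM-CUB1, with -0.07, 0.00 and 0.00 against 0.05, 0.16 and -0.09. In 5637 its HOTAIR arrays at -0.04, -0.04 and -0.26 were below the vector arrays at 0.36, 0.48 and 0.01, by -0.40 ± 0.119, which did not pass the threshold, although it did without 5637_LV replicate 3. Neither salivary cystatin thus came near the changes of CST6 and CSTA, and CST1 spread most on the vector arrays of 5637.

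CTSL and CTSV are the closest relatives among the 4 proteases, both endopeptidases. CTSL is made by most tissues and CTSV mainly by thymus, testis and squamous epithelium. CTSL values were 2.82, 2.67 and 2.67 in VM-CUB1_HOTAIR 20 and -2.96, -2.82 and -2.67 in VM-CUB1_LV, 46.4-fold higher with HOTAIR (log2 fold change 5.54 ± 0.086). In 5637 they were -0.15, -0.18 and -0.16 with HOTAIR and 0.15, 0.27 and 0.26 with vector, 1.31-fold lower (-0.39 ± 0.053). CTSL was therefore the member highest above its vector control in VM-CUB1, and its groups were reversed in 5637. CTSV values were -0.52, -0.66 and -0.64 in VM-CUB1_HOTAIR 20 and 0.52, 0.60 and 0.66 in VM-CUB1_LV, 2.30-fold lower (-1.20 ± 0.064). In 5637 the HOTAIR arrays read -0.26, -0.29 and -0.31 and the vector arrays 0.40, 0.26 and 0.30, 1.53-fold lower (-0.61 ± 0.055). CTSV was lower with HOTAIR in both lines, so the 2 related proteases went opposite ways in VM-CUB1 and the same way in 5637.

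The promoters of CTSL and CTSV are shown because these related proteases parted in VM-CUB1. Each window runs from 250 bases before to 50 after the annotated start, on the strand of the gene, from RefSeq (GRCh38.p14), at chr9:87725869-87726168 on the plus strand for CTSL and chr9:97039093-97039392 on the minus strand for CTSV. Capitals mark the GC box, GGGCGG on either strand (CCGCCC as its complement), and CCAAT on either strand.
CTSL: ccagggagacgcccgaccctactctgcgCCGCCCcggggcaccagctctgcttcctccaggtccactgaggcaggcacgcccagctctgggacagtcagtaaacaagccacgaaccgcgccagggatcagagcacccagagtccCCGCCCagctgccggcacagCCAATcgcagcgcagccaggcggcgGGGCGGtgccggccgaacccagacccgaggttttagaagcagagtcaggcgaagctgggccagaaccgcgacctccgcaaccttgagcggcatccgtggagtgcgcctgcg
CTSV: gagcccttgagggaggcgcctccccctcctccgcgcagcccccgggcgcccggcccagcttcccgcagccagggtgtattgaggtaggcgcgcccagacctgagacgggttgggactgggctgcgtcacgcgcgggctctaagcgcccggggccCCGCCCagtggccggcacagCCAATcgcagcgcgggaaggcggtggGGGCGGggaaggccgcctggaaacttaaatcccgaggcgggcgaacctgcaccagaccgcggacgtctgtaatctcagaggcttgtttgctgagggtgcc
Both windows held 1 CCAAT, and CTSL held 3 GC boxes against 2 in CTSV. They shared a run of 23 bases, gccggcacagCCAATcgcagcgc, at bases 155 to 177 of the CTSL window and 165 to 187 of the CTSV window. Both were rich in CpG, with 27 and 30 against a median of 14 over 35116 windows, and in G and C, at 69% and 71.3%. Of all windows 45% held a GC box and 34.6% a CCAAT. Windows were also matched for CST3, with 1 GC box and 21 CpG, and for CTSD, with 5 GC boxes and 43 CpG. CTSD also held 1 CACGTG, the core of the E-box read by the MiT/TFE factors of lysosomal genes, found in 7.26% of windows. A match to these letters is a description and not evidence of binding. 4 of the 10 members were matched to a window.

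CTSB encodes cathepsin B, which can trim peptides from the C-terminal end as well as cut inside proteins. Its values were 0.17, 0.14 and 0.09 in VM-CUB1_HOTAIR 20 and -0.12, -0.13 and -0.18 in VM-CUB1_LV, a log2 fold change of 0.27 ± 0.053. In 5637 they were 0.41, 0.42 and 0.41 against -0.43, -0.57 and -0.45, 1.86-fold higher (0.90 ± 0.053). HOTAIR arrays were above vector arrays in both lines, more widely in 5637. CTSD, the aspartic protease, was at 0.18, 0.15 and -0.04 in VM-CUB1_HOTAIR 20 and -0.03, -0.11 and -0.29 in VM-CUB1_LV, groups that overlapped (0.24 ± 0.088, not past the threshold). In 5637 the HOTAIR arrays at 0.14, 0.15 and 0.23 lay above the vector arrays at -0.12, -0.17 and -0.39 (0.39 ± 0.076, 1.31-fold higher). The VM-CUB1 call of CTSB was lost without VM-CUB1_HOTAIR 20 replicate 1 or 2 or without VM-CUB1_LV replicate 3, that of CST4 without any HOTAIR 20 array or without LV replicate 2 or 3, and that of CTSD in 5637 without any HOTAIR 4 array.

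**Figure D2:**
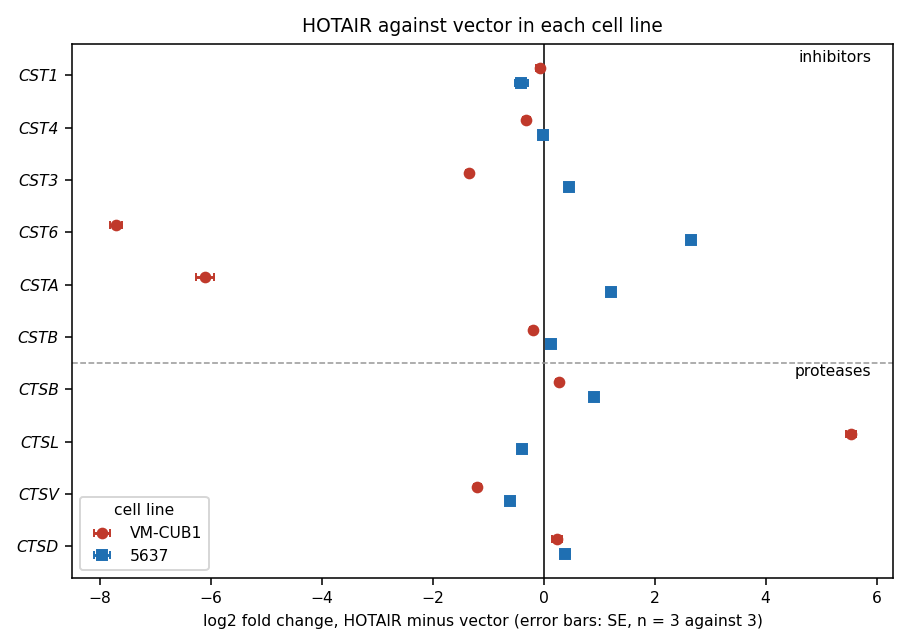
Log2 fold change of HOTAIR against vector (horizontal axis, HOTAIR minus vector) for each member, with circles for VM-CUB1, squares for 5637 and bars for the SE of 3 against 3 arrays. CST6 at -7.71 and CSTA at -6.10 stand at the left and CTSL at 5.54 at the right in VM-CUB1, while in 5637 the members lie between -0.61 and 2.65.

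Set side by side by role, the 6 inhibitors were 4 lower and 2 not called in VM-CUB1 and 3 higher and 3 not called in 5637. Their median log2 fold change was -0.83 in VM-CUB1 and 0.30 in 5637, against -0.03 and -0.04 over all genes. The 4 proteases were 2 higher and 1 lower in VM-CUB1 and 2 higher and 2 lower in 5637, with medians of 0.26 and 0.00. Among all genes 21.1% were higher and 20.5% lower in VM-CUB1, and 14.7% higher and 15.2% lower in 5637. The choice of members used these contrasts, so nothing is read from the split by role. HOTAIR and vector arrays of 8 of the 10 members did not overlap in VM-CUB1 and those of 9 of 10 in 5637, where 58% and 51.3% of all genes did not. For 5 of 10 (CST3, CST6, CSTA, CSTB and CTSL) the groups were apart in both lines in opposite order, against 17.1% of all genes, and 4 of 10 were called in both lines in opposite directions, against 8.26%. At least 2-fold changes were seen in 11.7% of all genes in VM-CUB1 and 3.74% in 5637; among members these were CST6, CSTA, CST3, CTSL and CTSV in the first line and CST6 and CSTA in the second.

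**Figure D3:**
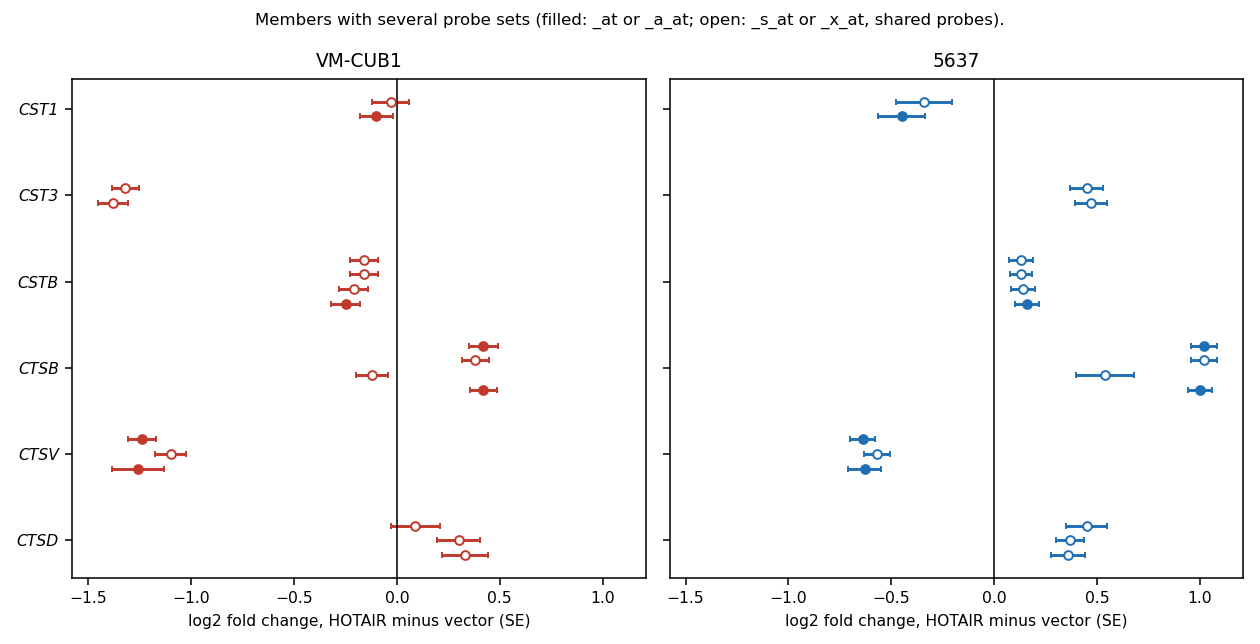
Log2 fold change of HOTAIR against vector (horizontal axis) for each probe set of the 6 members with several, with bars for the SE of 3 against 3 arrays. Filled points are probe sets with probes of their own and open points those marked as sharing probes with other transcripts, and 1 open CTSB point in VM-CUB1 lies at -0.12 while the other 3 lie between 0.38 and 0.42.

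Probe sets of a member mostly gave the same change. The 3 CTSV probe sets lay between -1.26 and -1.10 in VM-CUB1 and between -0.64 and -0.57 in 5637, and the pair for CST3 at -1.38 and -1.32 and at 0.47 and 0.45. The 4 CSTB probe sets lay between -0.25 and -0.16 in VM-CUB1 and between 0.13 and 0.16 in 5637. CTSB differed, because 1 of its 4 probe sets, marked as sharing probes, was at -0.12 in VM-CUB1 and 0.54 in 5637 where the other 3 were at 0.38 to 0.42 and reached 1.02. Without the shared ones, CTSB was 0.42 higher on the log2 scale in VM-CUB1 and 1.01 in 5637. Of the 22 probe sets 13 were marked as shared, and CST3, CST4 and CTSD had no other. The signal of these genes may therefore include a related transcript, CST4 among the near-identical salivary cystatins above all. CST6, CSTA, CTSL and CST4 rested on 1 probe set each.

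The genes whose pattern over the 12 arrays was most like that of a member were ranked by the root mean square difference of centred log2 values, for the members with a log2 change of at least 2. For CST6 these were CA2 (carbonic anhydrase 2) at 0.62, KRT5 (a basal keratin) at 0.68 and CSTA at 0.80. CLDN7 (a tight junction claudin) at 0.31, SPINT2 (a membrane serine protease inhibitor) at 0.34 and CA2 at 0.37 were closest to CSTA. For CTSL they were SHISA3 at 0.16, LAMA1 (a laminin chain) at 0.17 and DPYSL3 at 0.20. CSTA thus came after CA2 and KRT5 in likeness to CST6, and CST6 was not among the 3 genes closest to CSTA. KRT5 and CA2 were at -7.17 and -6.90 in VM-CUB1 and at 0.84 and 1.17 in 5637.

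A further 57 genes of the system, in 5 lists, were tested in the fit over all genes. Among them 12 were higher and 9 lower in VM-CUB1 and 11 higher and 8 lower in 5637, shares of 36.8% and 33.3% beside 41.6% and 29.9% of all genes. The difference between the lines passed in 9 with the higher change in VM-CUB1 and in 10 with the higher change in 5637, together 33.3%, against 42% of all genes. The 5 lists were chosen with earlier results of these data known, so nothing is read from their counts or medians.

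The other 12 cystatins and relatives held 0 calls with limma in either line. The methods' t-test called 0 too, and an unadjusted p under 0.05 was met by 2, both lower, in VM-CUB1 and by 1 higher and 1 lower in 5637. The genes with the widest changes were CST7, the leukocyte cystatin F, at 0.37 in 5637 (limma adjusted p = 0.028, and 0.0073 without 5637_LV replicate 2), CST2, the salivary cystatin SA next to CST1, at -0.32 in VM-CUB1 (adjusted p = 0.04, and 0.0035 without VM-CUB1_HOTAIR 20 replicate 1), and HRG, histidine-rich glycoprotein, at 0.20 in 5637 (adjusted p = 0.12).

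Among the 13 other cathepsins and legumain, VM-CUB1 held 3 that rose and 4 that fell, and 5637 held 2 and 3. These were 53.8% and 38.5% of the list, beside 41.6% and 29.9% of all genes. The list was chosen with earlier results known, and nothing is read from these shares. With the methods' t-test the counts were 3 and 2 in VM-CUB1 and 1 and 0 in 5637. Over all 18132 genes that test called 3000 higher and 2892 lower in VM-CUB1, and 1857 and 1798 in 5637. CTSZ, a carboxypeptidase, rose 2.74-fold in VM-CUB1, with arrays at 0.66, 0.73 and 0.71 against -0.66, -0.86 and -0.76 (limma adjusted p = 3.0e-07). CTSA, the serine carboxypeptidase that protects lysosomal galactosidase, rose 2.17-fold there (adjusted p = 3.5e-07). Neither passed in 5637, at -0.18 and -0.10, and both differed between the lines (adjusted p = 2.4e-08 and 7.2e-09). CTSH, an aminopeptidase, fell 6.86-fold in VM-CUB1 (log2 fold change -2.78 ± 0.086, adjusted p = 3.2e-08) and 1.49-fold in 5637 (adjusted p = 4.4e-04, and 0.012 with the methods' t-test, which did not pass). CTSS, the protease of antigen-presenting cells that degrades invariant chain, rose 4.51-fold in 5637, from -0.95, -1.29 and -1.26 with vector to 0.98, 0.99 and 1.05 (adjusted p = 9.1e-07), and was at -0.13 in VM-CUB1 (adjusted p = 0.074). Its difference between the lines was -2.30 (adjusted p = 1.1e-09). LGMN, legumain, named after its values were seen because CST6 and CST3 inhibit it, rose 1.76-fold in VM-CUB1 (adjusted p = 1.9e-06) and was at -0.17 in 5637 (adjusted p = 0.04). In the VM-CUB1 clone, CTSL and LGMN RNA was thus higher and that of their inhibitor CST6 lower. CTSV, which CST6 also inhibits, was lower too (-1.20). The 4 cathepsins of this list that fell there by limma were CTSH, CTSO, CTSF and CTSK, so the proteases did not move one way.

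**Figure D4:**
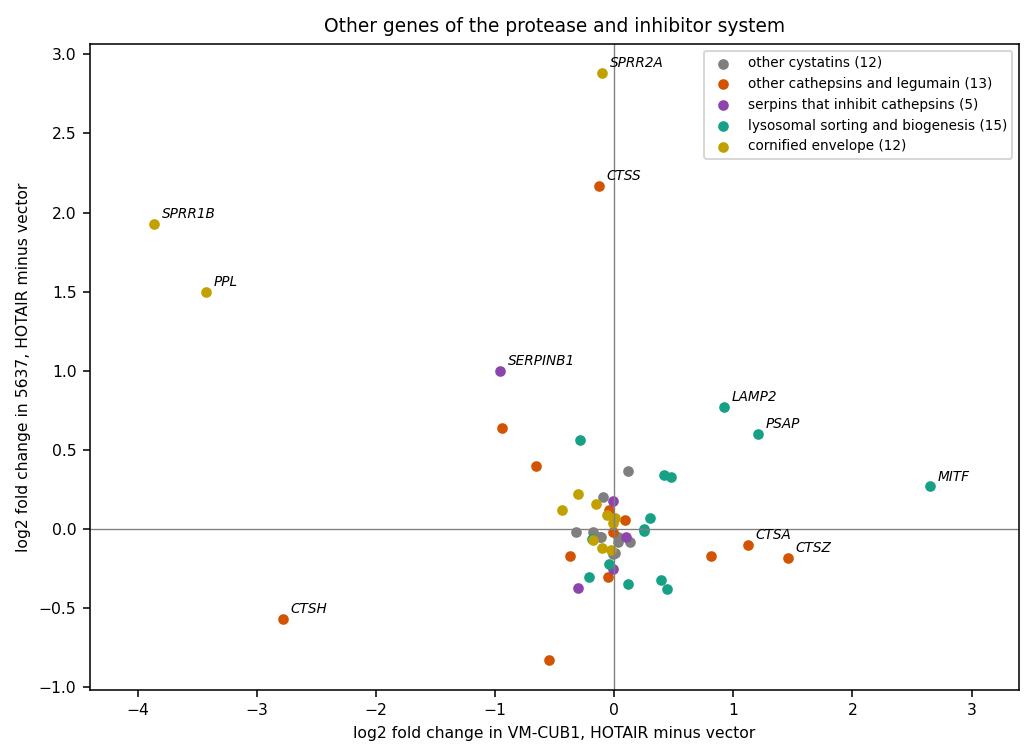
Log2 fold change of HOTAIR against vector in VM-CUB1 (horizontal axis) and in 5637 (vertical axis) for the 57 other genes, coloured by list, with names for those called at an absolute log2 change of at least 1 in a line and for LAMP2, named by the same rule. SPRR1B and PPL lie at the upper left, CTSS and SPRR2A near the vertical axis at the top, and CTSH and MITF at the far left and right near the horizontal axis.

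Serpins inhibit proteases by trapping them, and 5 that act on cathepsins were measured. SERPINB1, an inhibitor of neutrophil proteases such as cathepsin G, fell 1.95-fold in VM-CUB1 (adjusted p = 1.2e-06) and rose 1.99-fold in 5637 (adjusted p = 4.7e-06), a difference of -1.96 (adjusted p = 1.5e-10). SERPINB13 and SERPINB3, both inhibitors of cysteine cathepsins, fell in 5637 by 0.37 and 0.25 on the log2 scale (adjusted p = 0.0027 and 0.0058), and the difference between the lines passed for neither (adjusted p = 0.68 and 0.018). Both calls were lost with the methods' t-test (adjusted p = 0.024 and 0.017), that of SERPINB13 also without 5637_HOTAIR 4 replicate 1 or 2 (0.013 each). SERPINB3 lost its call with the replicate block (0.013), without shared probe sets (0.039), and without any HOTAIR 4 array or 5637_LV replicate 2 or 3 (0.015 to 0.027).

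Of 15 genes for the sorting of enzymes to lysosomes and for lysosomal membranes and their transcription, VM-CUB1 held 9 that rose and 1 that fell. In 5637 the counts were 5 and 3. These were 66.7% and 53.3% of the list, beside 41.6% and 29.9% of all genes. The median log2 fold changes were 0.30 in VM-CUB1 and 0.00 in 5637, against -0.03 and -0.04 over all genes. This list too was chosen with earlier results known, so nothing is read from its shares and medians. With the methods' t-test the counts were 6 and 1 in VM-CUB1 and 2 and 2 in 5637. That test called 3000 of the 18132 genes higher and 2892 lower in VM-CUB1, and 1857 and 1798 in 5637. MITF, a factor of the MiT/TFE family that drives melanocyte and lysosomal genes, rose 6.27-fold in VM-CUB1 (log2 fold change 2.65 ± 0.084, adjusted p = 3.6e-08) and was at 0.27 in 5637 (adjusted p = 0.011, and 0.0076 without 5637_LV replicate 3). PSAP, the precursor of saposins and a carrier of lysosomal enzymes, rose 2.31-fold and 1.52-fold (adjusted p = 5.9e-07 and 2.3e-05). LAMP2, a membrane protein of lysosomes, rose 1.89-fold and 1.71-fold (adjusted p = 1.2e-06 and 1.6e-05), with no difference between the lines past the threshold (0.15, adjusted p = 0.1). PSAP and LAMP2 were higher with HOTAIR in both lines, as CTSB was. LAMP1, of the same list, was lower in both, at -0.21 in VM-CUB1 and -0.30 in 5637 (limma adjusted p = 0.012 and 0.0012). TFEB and TFE3, also of the list, passed in neither line.

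The 12 genes of the cornified envelope, the structure in which cystatin A is laid down, held 3 that fell in VM-CUB1 and 3 that rose in 5637. That was 25% of the list in each line, where 20.5% of all genes fell in VM-CUB1 and 14.7% rose in 5637. Called in either direction were 41.6% and 29.9% of all genes. Because the list was chosen with earlier results of these data known, nothing is read from its counts. By limma and the methods' t-test 0 rose in VM-CUB1 and 0 fell in 5637, also 0 at an unadjusted p under 0.05. SPRR1B, a small proline-rich precursor, fell 14.6-fold in VM-CUB1 (adjusted p = 4.6e-10) and rose 3.82-fold in 5637 (adjusted p = 9.1e-07). PPL, periplakin, fell 10.7-fold and rose 2.83-fold (adjusted p = 4.0e-09 and 1.4e-06). SPRR2A rose 7.38-fold in 5637 (adjusted p = 7.6e-08) and was at -0.10 in VM-CUB1 (adjusted p = 0.45). The median was -0.13 in VM-CUB1 and 0.10 in 5637, so most of the list moved little when probe sets were averaged. SPRR1A, at 0.16 in 5637 over 2 probe sets, passed there without shared probe sets (limma adjusted p = 1.3e-04). Its difference between the lines then passed too (4.3e-04). SPRR1B and PPL had the opposite order in the lines that CSTA and CST6 had.

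Markers of other cell types were read beside these results. Of 15 measured, CD14 and CD68 (monocyte and macrophage genes) fell in VM-CUB1, by 0.36 and 1.02 on the log2 scale (adjusted p = 0.0023 and 6.6e-06). CD14, PECAM1 (endothelium) and MBP (myelin) rose in 5637, by 0.92, 0.30 and 0.19 (adjusted p = 0.0017, 0.0036 and 0.0097). With the methods' t-test 1 marker passed in each line, and CD14 passed in neither (adjusted p = 0.018 and 0.037). Its VM-CUB1 call was also lost without VM-CUB1_HOTAIR 20 replicate 1 or 2 (0.011 and 0.01). The fibroblast markers COL1A1, COL1A2, COL3A1 and LUM did not pass in either line, with LUM at -0.31 in VM-CUB1 (adjusted p = 0.028, and 0.0051 without VM-CUB1_HOTAIR 20 replicate 1). No level could be read from the centred values, and the part of other cells in the results was not tested.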

How the data were processed

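Total RNA of 12 preparations was labelled with the 3' IVT Express kit and hybridised to Affymetrix PrimeView arrays. Per the labels and the methods, the authors normalised the arrays by RMA in GeneSpring GX. The deposited values are log2 and were centred by the authors on the median of each probe set over the 6 arrays of a line, which was checked (largest absolute median 5.0e-07). Of 49395 probe sets, 44988 with exactly 1 gene symbol were kept, averaged per gene (18132 genes), while 1832 had several symbols, 2473 none, and 102 were control probe sets. No detection filter was possible on centred values.

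HOTAIR and vector arrays were compared within each line with limma 3.58.1 (lmFit and eBayes, R 4.3.3), two-sided, and p-values were adjusted by Benjamini-Hochberg across the 18132 genes (threshold 0.01). The difference between the lines was an interaction contrast over all 12 arrays. For members, which were picked on these contrasts, no p-value is given. Members and gene lists were chosen with earlier results of these data known. Named were all members, list genes called with an absolute log2 change of at least 1 (or, if under 3, the 3 with the largest change), and the 3 genes most like a member with a change of at least 2. Of the list genes, SERPINB6 and SORT1 were not analysed here. The test was checked on simulated data with changes planted in each line. It called 42% of planted log2 changes of 0.5 in VM-CUB1 and 58% in 5637, and 100% of those of 2 in both. Only 50 genes of each size were planted in a line, a far smaller share than was called in the data. The adjustment was therefore stricter in the simulation, and its rates are not those of the data. A small change that did not pass is still not shown to be absent. Alternatives were the methods' t-test, 1 fit over all arrays, a threshold of 0.05, other uses of probe sets, array medians subtracted, robust moderation, each array left out, and the replicate number as a block. Precision is limited by 3 arrays a group.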

Additional observations from a re-analysis of the deposited data

Results flagged for a closer look

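For 5 members every HOTAIR array lay on one side of every vector array in VM-CUB1 and on the other side in 5637. The same held for 17.1% of all genes. The log2 fold change in VM-CUB1 minus that in 5637 was -10.36 for CST6, -7.33 for CSTA, -1.81 for CST3, -0.34 for CSTB and 5.92 for CTSL. These differences were not tested, since the members were picked on them.

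For 12 of the list genes and cell type markers named by the rule, the difference between the lines passed in the limma interaction over 12 arrays. It did not pass for the rest so named, which were CST7, CST2, HRG, SERPINB13, SERPINB3, LAMP2 and LUM. Of all genes 42% passed the interaction. The rule named genes by their change in a line on these same arrays, so the count is a description and no independent test. Among proteases it was 1.22 for CTSA, 1.64 for CTSZ, -2.21 for CTSH and -2.30 for CTSS. SERPINB1 differed by -1.96, MITF by 2.38 (adjusted p = 9.6e-10) and PSAP by 0.60 (adjusted p = 9.1e-06), the last with a rise in both lines. In the cornified envelope it was -5.80 for SPRR1B, -4.93 for PPL and -2.98 for SPRR2A. The macrophage genes CD68 and CD14 differed by -1.05 and -1.28.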

How the results depend on the processing

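No result changed direction past the threshold under any alternative run. With the methods' t-test in 5637, 1798 genes were called lower in place of 2765, list genes higher numbered 7 in place of 11 and list genes lower 2 in place of 8. At a threshold of 0.05, 14 list genes were lower in VM-CUB1 in place of 9. Without probe sets that share probes, 3 members were called higher in 5637 in place of 5, with 7 members measured (CST3, CST4 and CTSD have no other probe set). Leaving out 1 array at a time, members called higher in VM-CUB1 ranged from 1 to 2 and lower from 4 to 5, and in 5637 from 4 to 5 and from 2 to 3. List genes lower in 5637 ranged from 4 to 7 in place of 8, with 4 without 5637_HOTAIR 4 replicate 2, and 5 without HOTAIR 4 replicate 3 or LV replicate 3. With the t-test, CST4 in VM-CUB1 and CST3 and CTSD in 5637 were no longer called. CST1 in 5637 passed in 1 fit over all arrays and at 0.05, and CSTB passed at 0.05 in both lines, in VM-CUB1 also in 1 fit over all arrays and without shared probe sets, and in 5637 with the t-test.

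The replicate numbers shared by the groups paired no samples by any label, and same-numbered arrays correlated at -0.05 to 0.08 in their deviations. With the replicate number as a block, 3530 genes were higher and 3383 lower in VM-CUB1 (3827 and 3709 without it) and 2374 higher and 2354 lower in 5637 (2665 and 2765). Members called higher in 5637 then numbered 4 and lower 3, with CTSD lost and CST1 gained. Among the list genes the block ended the 5637 calls of SERPINB3 and CTSG and the VM-CUB1 call of GGA2, and SERPINB13 passed in VM-CUB1. Having 3 arrays a group, and values with no background level, limit what can be said of small changes.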
